A study of Mus musculus with 2 samples.

Results

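Transcripts of 10 genes of fibroblast growth factor (FGF) signalling were examined in the lens of the adult and the growing mouse. They were the ligands Fgf1 and Fgf2, the receptors Fgfr1, Fgfr2 and Fgfr3, the Sprouty genes Spry1, Spry2 and Spry4, and the pathway targets Etv5 and Dusp6. The genes were chosen by name, and every probe set whose annotation gave only that symbol was kept, which gave 23 probe sets for the 10 genes, out of 34958 probe sets for 18194 genes. Lenses of wild-type C57BL/6 mice were pooled at postnatal day 60 (P60) and at postnatal day 7 (P7), with no allele or treatment added at either age, and total RNA of each pool was read on 1 array. The labels state neither how many lenses a pool held nor the sex of the animals. With 1 array per age no value has a replicate and the ages cannot be tested against each other, so only sizes of differences are reported.

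FGFs bind receptor tyrosine kinases together with heparan sulfate chains and activate the RAS-ERK cascade. In the rodent lens they act as differentiation factors: a low dose supports division of epithelial cells, a higher dose, as found at the vitreous side, drives them to elongate into fibres, and deletion of the receptors in mice blocks fibre formation. ERK activity switches on Sprouty genes, Dusp6 and Etv genes, so these are used as readouts of the pathway as well as being, for Sprouty and Dusp6, its inhibitors.

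Values are MAS5 signals, intensities on a linear scale that are scaled to a common trimmed mean on each array (500 on both). A floor of 103.9, the median over all values of the 2 arrays, separated measured from unmeasured probe sets, and values under it were raised to it before log2 ratios of P60 over P7 were taken. A ratio with 1 value under the floor is therefore a bound and is written "at least", and counts within 2-fold are counts on these floored values, in which a bound can hide a wider difference. The floor was exceeded by 47.8% of all probe sets at P60 and by 52.2% at P7. Where a gene had several probe sets that exceeded the floor at both ages, which held for 4239 genes, their log2 ratios scattered with a pooled SD of 0.58, a factor of 1.50. That SD is the only guide to error in these data and covers neither animals, pools nor hybridisations. All 11 fibre marker genes named on the array, such as Mip and Lim2, lay above the floor at both ages. Of 3 corneal keratin genes, Krt12 lay under it on both arrays and Krt5 above it on both (224 at P60 and 193 at P7). Krt14 lay above it at P60 only (122 at P60 and 59.4 at P7). Signal from the 5′ end of a control transcript relative to its 3′ end can fall with RNA or cDNA degradation. It was lower at P60 than at P7 for beta-actin (0.606 against 0.785) and Gapdh (1.29 against 1.39). The same held for the dap (0.0262 against 0.0995) and lys (0.833 against 1.50) spike-ins. The spike-ins are added transcripts, so their ratios do not measure the state of lens RNA. Whether RNA quality or labelling differed between the arrays was not tested.

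Of the 10 genes 9 were measured. Fgf1 and Fgfr2 were at least 2-fold higher at P60, Spry4 was at least 2-fold lower, and the other 6 lay within 2-fold on their brightest probe set. Among all 13029 measured genes, 11.5% were 2-fold higher and 9.44% 2-fold lower, which is 20.9% in either direction, and a count of 2 higher and 1 lower among 9 is too small to be read as a departure from those shares. The median log2 ratio of the 9 genes was 0.39, against 0.02 over all measured genes, and turned to -0.30 when the dimmest measured probe set of each gene was used. The 23 probe sets comprised 14 that exceeded the floor at both ages, 4 that did so at 1 age and 5 that did so at neither. Among the 18 measured probe sets 4 were 2-fold higher (9.89% of all measured probe sets) and 2 were 2-fold lower (10.6%), against 20.5% in either direction over all measured probe sets.

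**Figure D1:**
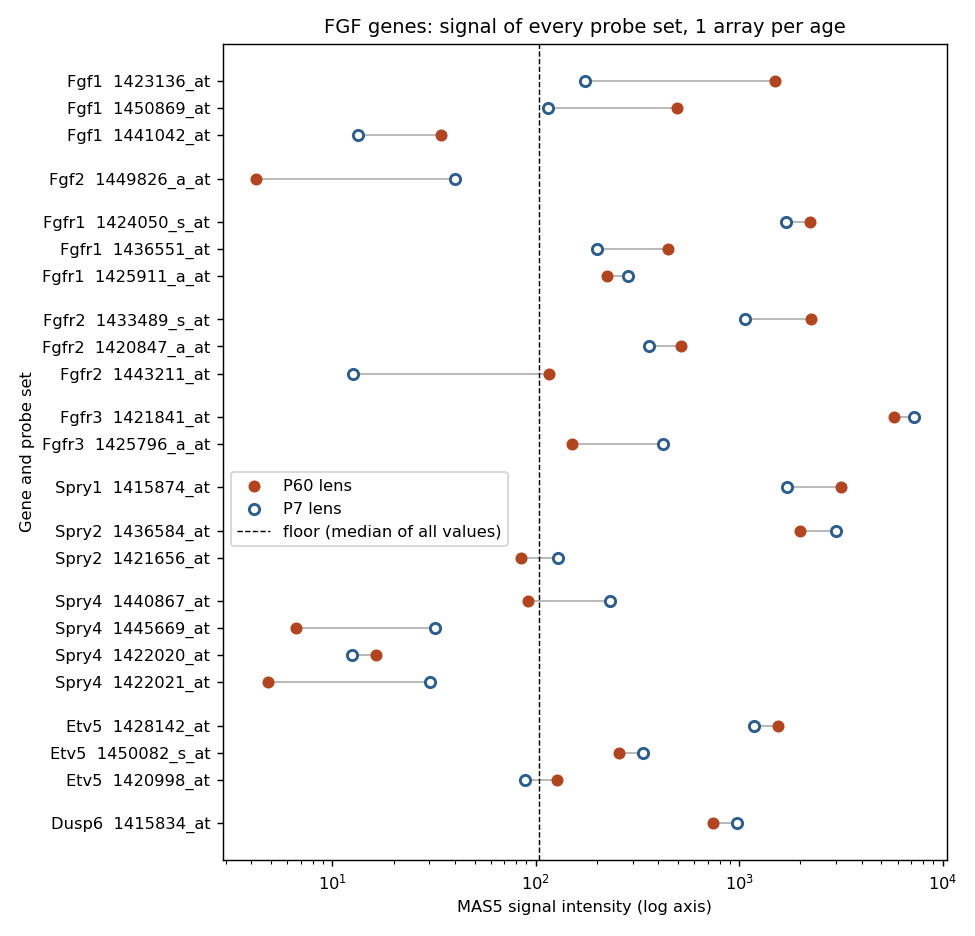
MAS5 signal intensity (log axis) of every probe set of the 10 FGF genes, with filled points for the P60 lens array, open points for the P7 lens array and a dashed line at the floor of 103.9. The first 2 Fgf1 probe sets have the widest gaps among probe sets that exceed the floor at both ages, at 1494 and 494 at P60 against 175 and 115 at P7, and the Fgf2 probe set lies left of the floor at both ages.

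Fgf1, the acidic FGF, which binds all FGF receptors, was the member with the highest ratio. Its probe set 1423136_at read 1494 at P60 and 175 at P7, which is 8.54-fold higher (log2 ratio 3.09). A second probe set, 1450869_at, read 494 at P60 and 115 at P7, 4.30-fold higher (log2 ratio 2.10). Both probe sets thus placed Fgf1 well above its P7 level, and both differences exceeded the SD of 0.58 between probe sets of a gene. The P7 reading of 115 lay close to the floor, and under 123, the 95th percentile of 83 probe sets for chemosensory receptors, whose transcripts a lens should lack. The third probe set, 1441042_at, was under the floor on both arrays, with 34.2 at P60 and 13.4 at P7, and gives no ratio. On the brightest probe set only 65 of the 13029 measured genes had a higher ratio than Fgf1.

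Fgf2, the basic FGF, a ligand that drives fibre differentiation in rat lens explants, was not measured. Its only probe set, 1449826_a_at, read 4.20 at P60 and 40.1 at P7, both under the floor, so no fold is given. A transcript under the floor on 1 probe set may still be present. Nudt6, which overlaps Fgf2 on its chromosome and encodes a Nudix hydrolase, was picked for that position after its values were seen. It read 258 at P60 and 246 at P7, a log2 ratio of 0.06.

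The 3 receptor genes encode tyrosine kinases with overlapping ligand ranges. Fgfr2 read 2247 at P60 and 1065 at P7 on 1433489_s_at, 2.11-fold higher. Its second probe set, 1420847_a_at, read 520 at P60 and 360 at P7, 1.44-fold higher. The third, 1443211_at, read 116 at P60 and 12.7, under the floor, at P7, at least 1.11-fold higher. All 3 probe sets of Fgfr2 thus lay on the higher side, but only the brightest passed 2-fold, and the mean of their log2 ratios (0.59) did not. The 2-fold call of Fgfr2 rests on that _s_at probe set and was lost without _s_at and _x_at probe sets (log2 ratio 0.53), a setting in which Fgfr1 passed 2-fold instead (1.16).

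Fgfr1, whose product is the main receptor for FGF2 in many cell types, showed no common direction. Its brightest probe set, 1424050_s_at, read 2237 at P60 and 1701 at P7, a log2 ratio of 0.39. Probe set 1436551_at read 447 at P60 and 201 at P7, 2.23-fold higher. Probe set 1425911_a_at read 224 at P60 and 285 at P7, a log2 ratio of -0.34. The range of 1.50 between these log2 ratios was the widest of any member, so the direction of Fgfr1 depended on the probe set. As background, on this array family a probe set name ending in _a_at marks probes shared by alternative transcripts of a gene, and one ending in _s_at marks probes shared by several transcripts that may belong to different genes. Whether this bears on the spread of Fgfr1 was not tested.

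Fgfr3, which restrains growth in cartilage and is expressed in differentiating lens cells, was lower on both of its probe sets. The brighter, 1421841_at, read 5758 at P60 and 7232 at P7, a log2 ratio of -0.33, which is smaller than the SD between probe sets. The dimmer, 1425796_a_at, read 150 at P60 and 420 at P7, 2.80-fold lower. Both point the same way but differ by 1.16 on the log2 scale. In order of their log2 ratios the receptors ran Fgfr2 (1.08), Fgfr1 (0.39) and Fgfr3 (-0.33). Neighbours in that order lay 0.68 and 0.72 apart, and Fgfr2 and Fgfr3 lay 1.41 apart. The SD of 0.58 is that of a single ratio, whereas a difference between ratios carries the error of both. The gaps between neighbours therefore do not settle their order.

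**Figure D2:**
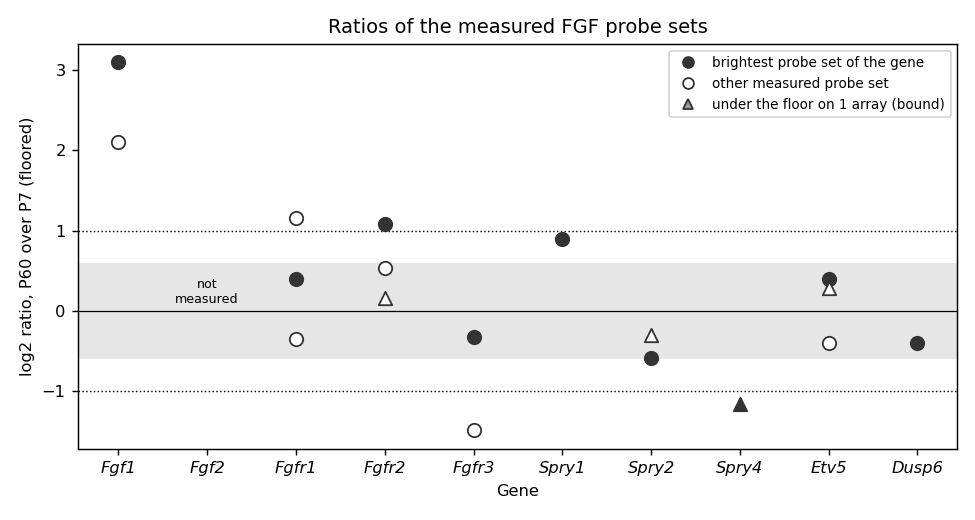
Log2 ratios of P60 over P7 for the 18 measured probe sets of the FGF genes, with the brightest probe set of each gene filled, triangles for ratios that are bounds, dotted lines at 2-fold and a grey band of 1 SD (0.58) between probe sets of the same gene. Both Fgf1 probe sets lie above the band and above 2-fold, whereas those of Fgfr1 and Etv5 fall on both sides of 0.

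Sprouty proteins dampen receptor tyrosine kinase signals upstream of ERK and are induced by the same signals. The 3 Sprouty genes did not share a direction. Spry1 read 3170 at P60 and 1711 at P7 on its only probe set, 1415874_at, 1.85-fold higher (log2 ratio 0.89), and was the member closest to the 2-fold limit from below, as Fgfr2 with 2.11-fold was from above. Spry2 read 1989 at P60 and 2988 at P7 on 1436584_at, 1.50-fold lower (log2 ratio -0.59). Its other probe set, 1421656_at, read 84.7, under the floor, at P60 and 128 at P7, at least 1.23-fold lower. Spry1 and Spry2 thus stood on opposite sides of 0, with log2 ratios 1.48 apart.

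Spry4 was the only member counted as lower, and the count rests on 1 of its 4 probe sets. Probe set 1440867_at read 91.7, under the floor, at P60 and 232 at P7, at least 2.23-fold lower. With the floor at 123 or at 200 the bounds on its log2 ratio were -0.91 and -0.21, each a minimum decrease because the P60 reading lies under both floors, and the 2-fold limit was not reached. The other 3 probe sets of Spry4 were under the floor on both arrays, with readings from 4.85 to 16.4 at P60 and from 12.4 to 32.1 at P7.

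The promoters of Spry1 and Spry2 are shown because these sister genes, both far above the floor on their brightest probe sets, differed in direction. The sequences are the 250 bases before the annotated start in RefSeq (GRCm38), 5′ to 3′ on the strand of the gene, at chr3:37639697-37639946 (plus strand) for Spry1 and chr14:105896820-105897069 (minus strand) for Spry2. Capitals mark a GC box.
Spry1: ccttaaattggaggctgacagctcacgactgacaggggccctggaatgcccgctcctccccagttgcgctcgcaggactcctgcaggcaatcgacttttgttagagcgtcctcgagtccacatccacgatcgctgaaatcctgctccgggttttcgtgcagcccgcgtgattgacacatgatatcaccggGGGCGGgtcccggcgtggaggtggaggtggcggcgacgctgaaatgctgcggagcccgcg
Spry2: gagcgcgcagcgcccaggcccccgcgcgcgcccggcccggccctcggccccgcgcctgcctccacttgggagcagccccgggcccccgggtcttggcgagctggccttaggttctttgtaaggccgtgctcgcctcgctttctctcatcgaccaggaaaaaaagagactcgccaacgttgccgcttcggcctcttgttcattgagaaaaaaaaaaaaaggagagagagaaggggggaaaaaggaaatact
Both windows had 62.4% G and C and 23 CpG dinucleotides, against medians of 52.4% and 6 over all 32851 windows of this length in the table. Searched on both strands were the GC box GGGCGG, the ETS-type site CCGGAA, the AP-1 site TGAGTCA and the E-box CACGTG. The GC box was found in Spry1 alone of these windows, its last base 54 bases from the end of the window, and was present in 32.7% of all windows. The ETS-type, AP-1 and E-box letters were in neither window, and in 12.0%, 4.46% and 6.02% of all windows. Of the 10 members 7 matched a window in the table, and these are letter matches in a short window, with no measurement of binding in the data.

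Etv5 and Dusp6 are widely used as transcriptional readouts of FGF and ERK activity, and neither reached 2-fold on any probe set. Etv5 encodes an ETS-family transcription factor. Its brightest probe set, 1428142_at, read 1559 at P60 and 1187 at P7, a log2 ratio of 0.39. Probe set 1450082_s_at read 256 at P60 and 338 at P7, a log2 ratio of -0.40, and 1420998_at read 127 at P60 and 88.9, under the floor, at P7, a log2 ratio of at least 0.29. The 3 probe sets of Etv5 therefore gave no common direction. Dusp6, the phosphatase that inactivates ERK in the cytoplasm, read 742 at P60 and 979 at P7 on its only probe set, 1415834_at, a log2 ratio of -0.40. That difference is smaller than the SD between probe sets of a gene.

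Of the 5 feedback and target genes 1 was 2-fold lower, none was 2-fold higher, and the median log2 ratio was -0.40. Over all measured genes 9.44% were 2-fold lower and 11.5% 2-fold higher. A count of 1 among 5, here the bound of Spry4, is too small to be read as a departure from those shares. Spry1 and Etv5 had ratios above 0 and Spry2, Spry4 and Dusp6 below it. Of the 6 members with 2 or more measured probe sets, Fgf1, Fgfr2, Fgfr3 and Spry2 had every measured probe set on the same side of 0, and Fgfr1 and Etv5 did not. The ranges between probe sets of 1 gene ran from 0.28 (Spry2) to 1.50 (Fgfr1). For Fgf2, Spry1, Spry4 and Dusp6 no second measured probe set was available.

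**Figure D3:**
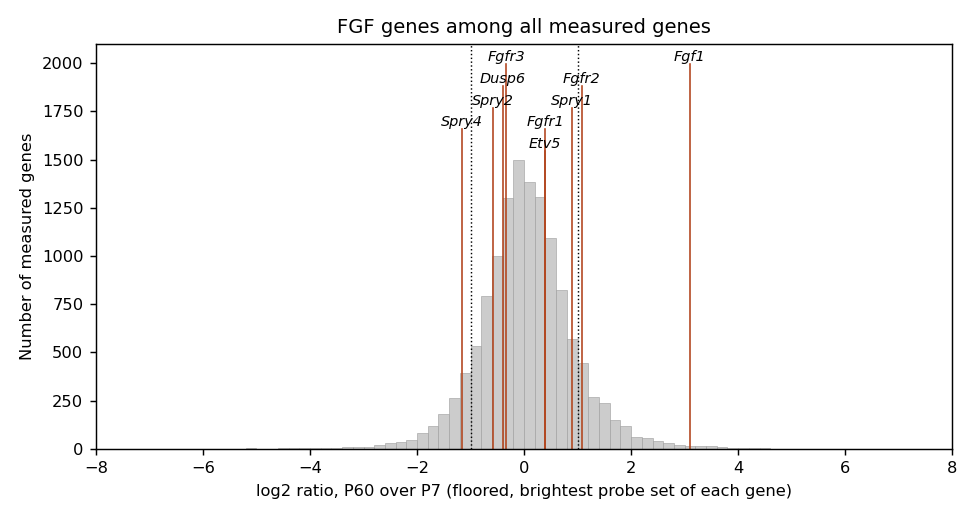
Histogram of the log2 ratio of P60 over P7 for the brightest probe set of all 13029 measured genes (bars, number of genes), with a line at the ratio of each of the 9 measured FGF genes and dotted lines at 2-fold. Fgf1 lies in the far upper tail at 3.09, while the 8 other genes lie between -1.16 and 1.08.

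The wider pathway was described from 7 lists with 88 genes, of which 78 had a probe set of their own and 63 were measured. Across these, 9 genes (14.3%) passed 2-fold upward and 6 (9.52%) downward, with 48 within 2-fold and a median log2 ratio of 0.27. These shares lie near the 11.5% and 9.44% of all measured genes. The balance turned with the treatment of low signals, both in the pathway and over all genes. With the floor at 50, 9 pathway genes (12.5%) were higher and 13 (18.1%) lower, against 11.9% and 13.0% of all measured genes. With a pseudocount of 32 in place of the floor, 6 (9.52%) were higher and 10 (15.9%) lower, against 12.3% and 12.8%.

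Of 16 other secreted FGFs 7 were measured, all near the floor, and none reached 2-fold on floored values (median -0.09). Fgf4, an early embryonic FGF, had the highest ratio with 153 at P60 and 108 at P7 (log2 ratio 0.51). Fgf10, a mesenchymal ligand of Fgfr2 needed for lacrimal gland budding, read 17.8 at P60 and 108, just above the floor, at P7. Fgf7 read 50.0 at P60 and 126 at P7, and Fgf3 78.1 at P60 and 120 at P7. The ratios of Fgf3, Fgf7, Fgf10, Fgf15 and Fgf23 are all bounds and have no order among themselves. At P60 only Fgf4 and Fgf9 among these 16 exceeded the floor, each on 1 probe set, beside 2 of the 3 probe sets of Fgf1. Several of the 16, such as Fgf10, Fgf15 and Fgf23, have only 1 probe set. Numbers of probe sets above the floor therefore cannot be compared across these genes.

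The FGF homologous factors are intracellular relatives that bind sodium channels and do not signal through FGF receptors in the classical way. Of 3 measured, Fgf12 was 4.98-fold higher, with 1992 at P60 and 400 at P7 and log2 ratios from 1.45 to 2.32 over its 3 probe sets. Fgf13 read 664 at P60 and 436 at P7 (log2 ratio 0.61), and Fgf11 224 at P60 and 247 at P7 (-0.14). All 3 measured probe sets of Fgf12 passed 2-fold.

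Among 8 measured receptors and cofactors 1 was 2-fold lower and none 2-fold higher (median -0.45). Fgfbp3, a secreted protein that binds FGFs and releases them from the matrix, read 251 at P60 and 1300 at P7, 5.18-fold lower on its only probe set. Flrt3, a membrane protein that associates with FGF receptors, read 698 at P60 and 1321 at P7, 1.89-fold lower, and its second probe set had a log2 ratio of -1.15. Fgfr4 read 221 at P60 and 112 at P7, 1.97-fold higher, although 4 of its 5 probe sets were unmeasured. Flrt1 had a log2 ratio of 0.82.

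Of 24 listed adaptor and RAS-ERK genes 17 were measured and 15 lay within 2-fold (median 0.27). Ptpn11, which encodes the phosphatase SHP2 that passes FGF receptor signals to RAS and is required in the mouse lens, read 6187 at P60 and 2900 at P7, 2.13-fold higher, but its 3 probe sets ran from -0.16 to 1.09. The exchange factor gene Sos2 read 1657 at P60 and 892 at P7, 1.86-fold higher. Shc1, an adaptor of receptor tyrosine kinases, was 4.31-fold lower with 1656 at P60 and 7141 at P7, and its other probe set stood at -0.45. The kinase gene Araf had a log2 ratio of -0.80.

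Among 7 measured feedback inhibitors outside the 10 genes, Spry3, a further Sprouty gene, was 2.15-fold higher with 1784 at P60 and 830 at P7. Dusp4, a nuclear phosphatase of ERK, was 3.45-fold lower with 154 at P60 and 532 at P7. Il17rd, which encodes the FGF antagonist SEF, had a log2 ratio of 0.80, and Spred3 read 12.1, under the floor, at P60 and 144 at P7 (at least 1.38-fold lower). With Spry1 and Spry3 above 0 and Spry2 and Spry4 below it, the 4 Sprouty genes were split evenly.

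Of 9 measured ERK-responsive genes 3 were 2-fold higher and 1 lower (median 0.47). The AP-1 gene Fos read 400 at P60 and 142 at P7, 2.82-fold higher, and its relative Fosl1 read 242 at P60 and 108, near the floor, at P7, 2.24-fold higher. The lowest were Ets1, an ETS factor also expressed by endothelial cells, which read 29.5, under the floor, at P60 and 480 at P7 (at least 4.62-fold lower), and Phlda1 (log2 ratio -0.64). Etv4, of the same ETS subfamily as Etv5, was named for that relation, outside the rule. It was under the floor on both arrays, with 28.1 at P60 and 100.1 at P7.

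The enzymes that build and trim heparan sulfate, the coreceptor chain of FGF signalling, went both ways. Of 12 measured, 3 passed 2-fold upward and 2 downward (median 0.59). Hs6st1, a 6-O-sulfotransferase, read 1374 at P60 and 504 at P7, 2.73-fold higher, and Glce, an epimerase, was 2.69-fold higher with its other measured probe set at -0.41. Sulf2, which removes 6-O-sulfates at the cell surface, was 6.17-fold lower on its brightest probe set (243 at P60 and 1498 at P7), yet its 3 probe sets ran from -2.63 to 0.70. Hs3st1, a 3-O-sulfotransferase, was 5.60-fold lower on its only probe set, with 252 at P60 and 1409 at P7.

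**Figure D4:**
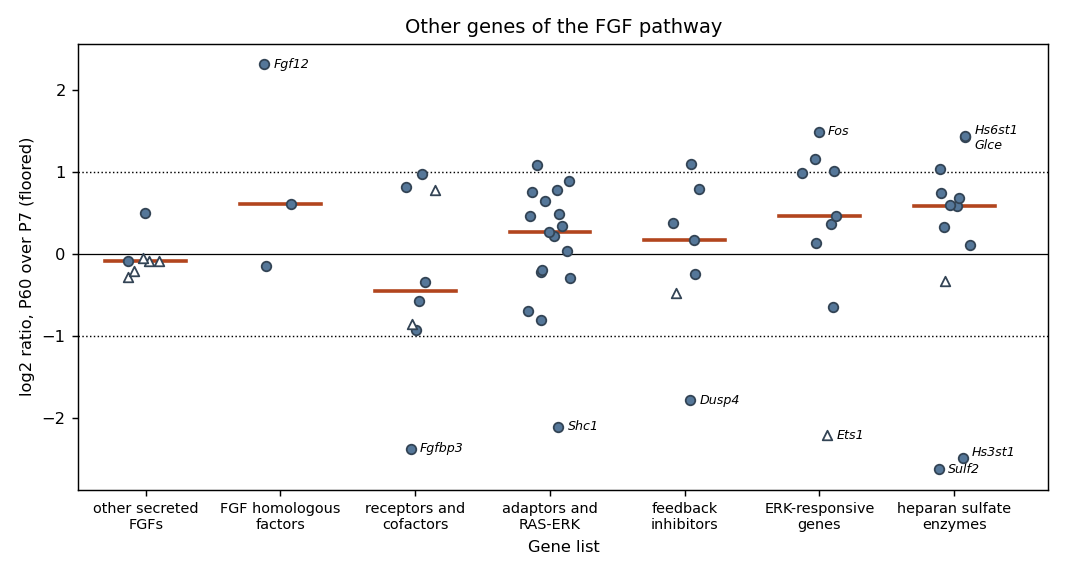
Log2 ratios of P60 over P7 for the 63 measured genes of 7 FGF pathway lists (points, brightest probe set of each gene; open triangles, bounds), with a bar at the median of each list and dotted lines at 2-fold. Most genes lie within 2-fold, and the list medians run from -0.45 for receptors and cofactors to 0.61 for the homologous factors.

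Markers of cell types in and around the lens differed between the same pools. In bulk RNA, fewer cells of a type and less RNA per cell cannot be told apart. Of 7 lens epithelial markers 3 were 2-fold higher and 1 lower (median 0.84), with a summed signal of 59897 at P60 and 28279 at P7. Gja1 alone made up 29700 of that sum at P60 and 12531 at P7, and its measured probe sets ran from -0.37 to 2.72. The water channel gene Aqp1 was highest (5.50-fold higher). The transcription factor gene Foxe3 was lowest (2.61-fold lower), with 110, near the floor, at P60 and 288 at P7. The 11 fibre markers all lay within 2-fold, with a median of -0.04. Most of them read near the top of the scale, such as Crygs with 69617 at P60 and 73557 at P7, where the arrays reached at most 97477 at P60 and 88698 at P7. Whether ratios are compressed at that level was not tested, and ratios near 0 there do not exclude a difference. Of 8 measured vascular endothelial markers 7 were 2-fold lower and none higher, with a summed signal over 10 genes of 1066 at P60 and 4614 at P7. Cldn5 was at least 10.5-fold lower, and Egfl7 had the ratio nearest to 0 (-0.83). Of these 10 genes 3 lay above the floor at P60 and 8 at P7.

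Other marker lists were mixed. Of 5 pericyte genes Rgs5 read 104, at the floor, at P60 and 8935 at P7, with log2 ratios from -6.43 to -2.19 over its 4 probe sets. Pdgfrb, the receptor of platelet-derived growth factor BB, was 9.72-fold higher. Of 6 listed fibroblast genes 3 were measured, and Col1a1, Dcn and Lum were under the floor on both arrays. Among the 3 measured, 2 were 2-fold higher, Col1a2 (9.21-fold) and Pdgfra (2.16-fold), while Col3a1 was at least 1.52-fold lower. The other measured probe set of Pdgfra had a log2 ratio of 0.29. Of 6 measured pigment cell genes 1 was 2-fold higher, Oca2 (8.62-fold), and 2 were lower, Tyrp1 (4.20-fold) and Pmel (2.15-fold). Tyr, Dct and Mlana lay below 0 within 2-fold on floored values, and the list median was -0.30. Of 6 measured photoreceptor genes 1 was 2-fold higher, Gnat1 (at least 7.59-fold), and 2 were lower, Pdc (4.44-fold) and Nrl (3.25-fold). Sag and Crx lay below 0 and Pde6b above it, all within 2-fold, and the list median was -0.77. In retinal glia Aqp4 was 4.65-fold higher and Rlbp1 at least 2.25-fold lower, and no macrophage gene passed 2-fold on floored values. Cd163 was at least 1.58-fold higher (164 at P60 and 94.5, under the floor, at P7), and Mrc1 at least 1.67-fold lower (33.1, under the floor, at P60 and 173 at P7). Of the corneal keratin genes Krt5 had a log2 ratio of 0.21 and Krt14 was at least 1.17-fold higher (122 at P60 and 59.4, under the floor, at P7). None of 4 skeletal muscle genes was measured on its brightest probe set. The other probe set of Ckm exceeded the floor at P60 only, with a log2 ratio of at least 1.39, which passes 2-fold. The part of these cell types, and of the lower 5′ signal at P60, in the ratios of Fgf1, Fgfr2, Fgfr3 and Spry4 was not tested.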

How the data were processed

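Total RNA from pooled lenses was labelled with biotin after amplification and hybridised to 1 array per age, per the labels' protocols. The deposited intensities are linear MAS5 signals, 1 per probe set and array, per the submitters' processing notes. The version, settings and detection calls of MAS5 were not stated in the labels. Trimming 2% at each end, the mean was 500.0 on both arrays. Array precision is limited by the number of arrays, 1 per age.

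Of 45101 probe sets, 34958 had 1 gene symbol in the platform annotation, 932 several and 9211 none. All 23 probe sets of the 10 genes carried current symbols. No genome build belongs to the intensities. Each gene was represented by its brightest probe set (by mean log2 intensity over both arrays), counted as measured above the floor on at least 1 array and called at 2-fold. Named were all probe sets of the 10 genes. Also named were the 2 highest and 2 lowest measured genes of each pathway list and the highest and lowest of each marker list. A few other genes of these lists were named beside them. The genes and lists were chosen with earlier results of these data known. Alternatives changed the floor, the probe set and the scaling. Calculations were done in Python 3.11.15 with pandas 2.3.3 and tested on simulated data.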

Additional observations from a re-analysis of the deposited data

How the results depend on the processing

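With 1 array per age no replicate could be left out, and no test was run. No paired analysis was possible because each age has 1 array. Over 9 alternatives Fgf1 stayed at least 2-fold higher, with log2 ratios from 2.10 to 3.13. Spry1 (0.82 to 0.89), Spry2 (-0.66 to -0.30) and Dusp6 (-0.47 to -0.39) kept their sign within 2-fold. Spry1 and Dusp6 have 1 probe set each, above every floor used, so a change of floor or of probe set could not move them. Fgfr2 ran from 0.16 to 1.08 and Fgfr3 from -1.49 to -0.30, whereas Fgfr1 ran from -0.34 to 1.16 with the probe set chosen. The count of higher members was 2, and 1 with the dimmest or the mean of the probe sets. It stayed 2 without _s_at and _x_at probe sets, but with Fgfr1 in place of Fgfr2, whose call was thus lost under 3 of the 9 alternatives. The count of lower members was 1, but 0 with the floor at the receptor percentile or at 200 and 2 with the dimmest probe sets, which also moved the median of the members to -0.30. Lower pathway genes numbered 6, but 13 with the floor at 50 and 10 with a pseudocount of 32 in place of the floor. Over all genes the lower count was 1230, but 2032 with the floor at 50 and 1674 with the pseudocount. The SD between probe sets ran from 0.53 to 0.67. Signals near the floor limit Fgf2 and Spry4 most.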
